A study of Arabidopsis thaliana with 23 samples.

Results

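REF6 (AT3G48430, chromosome 3) and ELF6 (AT5G04240, chromosome 5) are the 2 members described here, chosen by their locus identifiers out of 27444 protein-coding genes on the nuclear chromosomes of Arabidopsis thaliana. Both encode Jumonji C (JmjC) enzymes that remove methyl groups from lysine 27 of histone H3. Trimethylation of this residue, H3K27me3, is the mark that Polycomb complexes place on silenced genes, and these enzymes are known for opposing it at flowering and developmental genes. REF6 carries zinc fingers that bind DNA directly, and the name REF6 stands for relative of early flowering 6, that is, of ELF6.

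Each deposited peak list is described at the 2 genes that encode these enzymes, so the question is what the enzyme and its mark look like over the enzymes' own loci. Chromatin immunoprecipitation followed by sequencing was done on unopened flowers of plants aged 5 weeks in the Col-0 background, grown under long days at 22 °C and nights of 20 °C. The series holds 23 samples in 10 groups, and the 6 groups whose lists are used here comprise 15 samples. REF6-GFP, a REF6 protein fused to green fluorescent protein, was precipitated through GFP from the ref6-3 mutant. This was done in 3 samples fixed with DSG, which links neighbouring proteins, and in 3 samples without it. REF6-ZnF-GFP, whose exact change is not defined in the labels, was profiled in 3 samples in ref6 (the ZnF-ref6 list) and in 2 samples in elf6-3ref6Cjmj13G (the ZnF-triple list), with DSG in both per the titles. The genotype entry of the samples in ref6 reads REF6p::REF6-GFP ref6-3 and so disagrees with their titles, which were followed. H3K27me3 was profiled with an antibody in 2 wild-type samples and in 2 samples of elf6-3ref6Cjmj13G, called the triple mutant below.

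The genotypes bear directly on both genes. Every plant used for a REF6 list carried a REF6 transgene, written in the labels as REF6p:: for the REF6-ZnF lines, beside a mutated copy of the native gene (ref6-3 or ref6C). A peak over the REF6 gene can therefore hold DNA from the transgene, from the native locus or from both, and these cannot be told apart in the lists. The input DNA in the series came from UBQ10p::GFP plants, which carry no tagged REF6 in their labels. Added copies of REF6 sequence in the tagged plants would not be matched in that input. Whether copy number adds to the width, fold or coverage of peaks over the REF6 gene was not tested. The triple mutant carries mutated alleles of both members. Each list was called on pooled samples, so no value below has a replicate error and no difference was tested. The lists hold no expression values, so the labelled tissue was not checked against markers. Sequencing depth was not used here.

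The REF6 gene lay almost entirely under REF6 peaks in all 4 lists and under no H3K27me3 domain in either genotype. Peaks covered 96.1% of its body with REF6-GFP and DSG and 96.1% with REF6-GFP without DSG. They covered 89.0% in the ZnF-ref6 list and 87.1% in the ZnF-triple list. H3K27me3 coverage of REF6 was 0 in both genotypes. ELF6 differed in both respects: peaks covered 0 of its body in each of the 4 REF6 lists, and its H3K27me3 coverage was 0 in wild-type flowers and 23.6% in triple mutant flowers.

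Over the REF6 gene, REF6-GFP with DSG gave 1 peak at chr3:17934638-17940576 (TAIR10), which was 5939 bp wide. Its fold enrichment, which is the authors' own value over their control, was 23.4, and its −log10 q was 818. Without DSG the gene again lay under 1 peak, at chr3:17934630-17940576, with a width of 5947 bp, a fold of 19.0 and a −log10 q of 798. The higher-coordinate edge was the same base in both lists, and the lower edges lay 8 bp apart. Over the 4215 pairs of peaks that overlapped 1 to 1 between these lists, the median difference was 54 bp at the lower edge and 53 bp at the higher edge. Of these pairs, 0.593% had the same higher edge and 10.5% had lower edges within 8 bp.

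The ZnF-ref6 list held 2 peaks over the REF6 gene. The wide one, at chr3:17933623-17939801, spanned 6179 bp with a fold of 3.87 and a −log10 q of 25.3. A second one, at chr3:17940018-17940399, spanned 382 bp with a fold of 1.95 and a −log10 q of 2.16, close to the lowest value of that list (2.09). They were separated by a gap of 216 bp. The ZnF-triple list held 1 peak, at chr3:17934730-17940076, with a width of 5347 bp, a fold of 8.91 and a −log10 q of 69.1. The lists differ in length and their controls are not given in the sources used here, so the folds are not compared between lists.

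**Figure D1:**
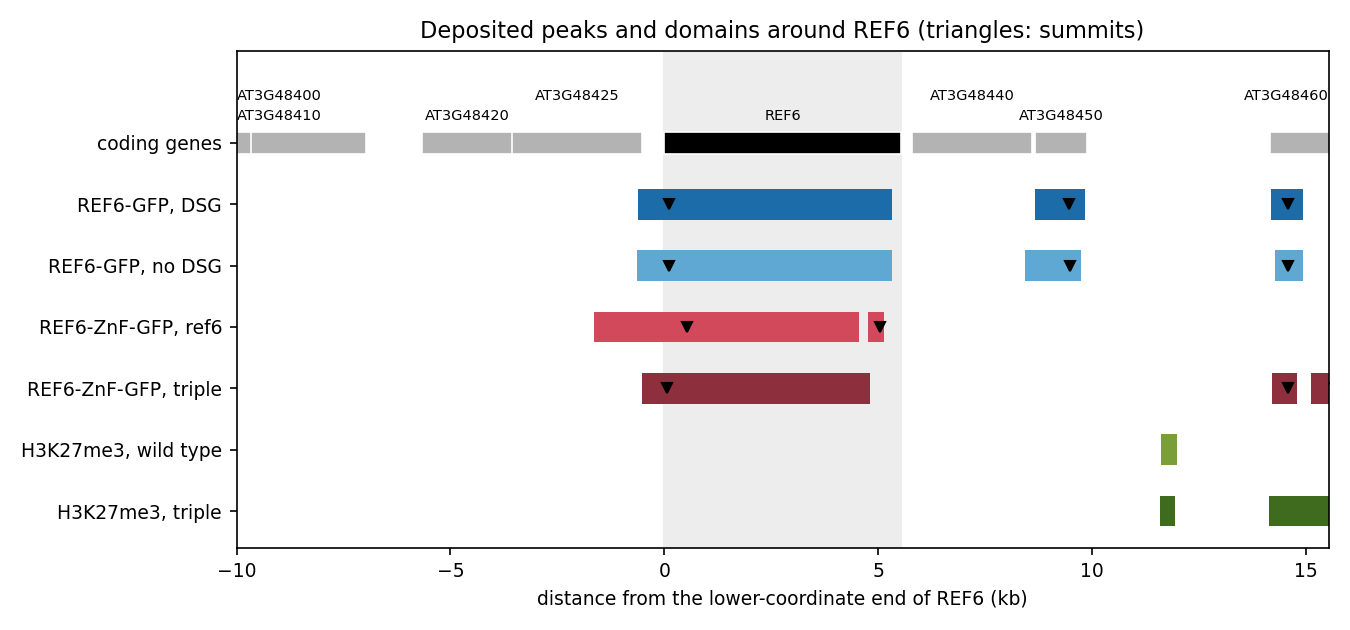
Deposited intervals within 10 kb of the REF6 gene, with distance from the lower-coordinate end of the gene (kb) on the horizontal axis and 1 row per list, bars for peaks or domains, triangles for summits, and the shaded band for the gene. All 4 REF6 lists have a wide bar over the gene with its listed summit near the lower-coordinate end, and both H3K27me3 rows are empty there.

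The lower edges of the peaks lay close together in 3 lists, and the higher edges did so in the REF6-GFP pair. The peaks began 618, 626 and 526 bp below the lower-coordinate end of the gene in REF6-GFP with DSG, REF6-GFP without DSG and the ZnF-triple list. In the ZnF-ref6 list the peak began 1633 bp below it. At the other end, coverage stopped 216 bp short of the gene end in both REF6-GFP lists, 393 bp short in the ZnF-ref6 list and 716 bp short in the ZnF-triple list. The higher edge of the ZnF-triple peak thus lay 500 bp from that of REF6-GFP with DSG, against a median of 152 bp over 1897 pairs of overlapping peaks, and 84.7% of those pairs lay at most this far apart. No list reached the higher-coordinate end of REF6, and all 4 ran past the lower one.

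The listed summit, a position of high signal within a peak, lay near the lower-coordinate end for the wide peak of each list. It was at base 17935376 with REF6-GFP and DSG, 17935367 without DSG and 17935321 in the ZnF-triple list. These summits lay 2.17, 2.0 and 1.17% of the way along the gene, all within 55 bp of each other. The listed summit of the wide ZnF-ref6 peak was at 17935798, which is 9.79% of the way along, and that of the second peak was 91.1% of the way along. Over the same 1897 pairs of REF6-GFP with DSG and the ZnF-triple list, the median distance between summits was 148 bp, and 24.9% of the pairs lay within 55 bp. In the naming of MACS2, the peak caller, letters after a peak number count the summits within a peak. The wide ZnF-ref6 peak carried the letter g, that is, summit 7, and 15 of the 332 peaks of that list carried this letter or a later one. The REF6-GFP peaks over REF6 carried the letter a in both lists, and the ZnF-triple peak the letter b. Each list holds a single entry per peak number, so other summits of a lettered peak are not listed and their places are unknown.

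The peaks over the REF6 gene were among the widest of each list. With REF6-GFP and DSG the peak ranked 2 by width, 19 by fold and 5 by −log10 q of 5393, and was 8.33 times the median width of 713 bp. Without DSG it ranked 1 by width, 201 by fold and 46 by −log10 q of 4526, at 8.93 times the median width of 666 bp. In the ZnF-triple list it ranked 1 by width, 71 by fold and 87 by −log10 q of 9327, at 11.3 times the median width of 475 bp. In the ZnF-ref6 list it ranked 13 by width, 2 by fold and 26 by −log10 q of 332, at 25.96 times the median width of 238 bp. All 12 wider peaks of that list lay between 3.2 and 3.7 Mb of chromosome 2, a block of 48 peaks. Outside the block, the widest peak other than that over REF6 spanned 804 bp.

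In both REF6-GFP lists and the ZnF-triple list, the peak at REF6 ranked higher by width than by fold. The only wider peak of REF6-GFP with DSG, 6931 bp at chr5:22438573-22445503, lay over 5 genes, whereas 89.6% of the peak at REF6 lay inside the REF6 gene alone. The next peaks by width after REF6 spanned 4619 bp with DSG (XTH12, AT5G57535 and XTH13), 4424 bp without DSG (AT4G20830, AT4G20835 and AT4G20840) and 3474 bp in the ZnF-triple list (AT3G50270 and AT3G50280). No other peak was both as wide and as high in fold in any of the 4 lists.

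**Figure D2:**
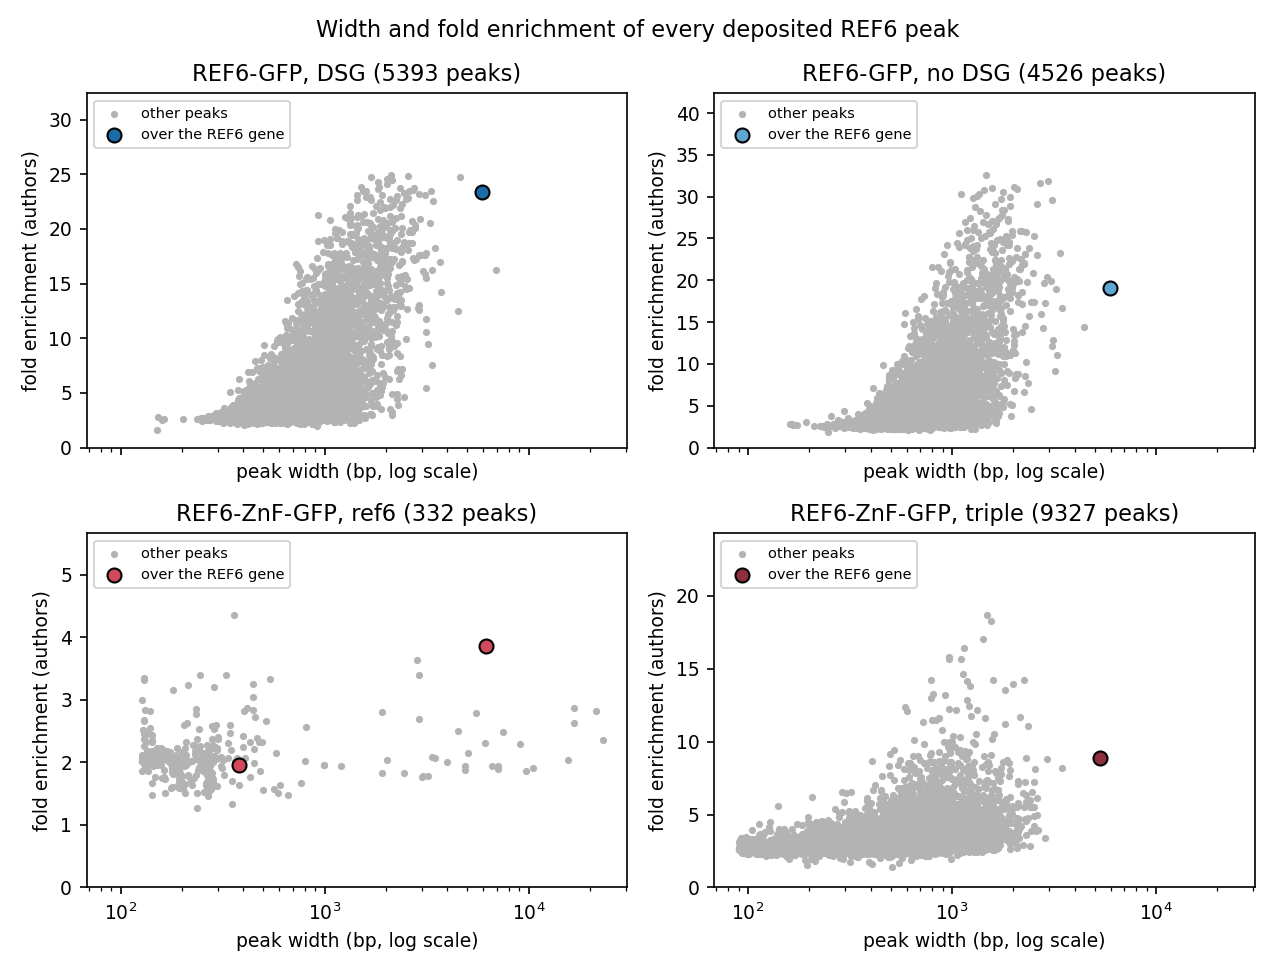
Width (bp, log scale) against the authors' fold enrichment for every peak of the 4 REF6 lists, 1 panel per list, with the peaks over the REF6 gene in colour and all others in grey. The REF6 peak stands at 5939, 5947, 6179 and 5347 bp, to the right of nearly all other peaks outside the chromosome 2 block (the smaller ZnF-ref6 peak is at 382 bp), and its fold is high within each list without being the highest.

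By the length of 1 gene body under 1 peak, REF6 ranked 1 in both REF6-GFP lists and the ZnF-triple list. This measure was taken after the values were seen. In REF6-GFP with DSG the REF6 peak covered 5321 bp of the gene, followed by 3480 bp of HA3, a plasma membrane proton pump gene, and 3278 bp of AT1G29560. Without DSG it again covered 5321 bp, followed by 3088 bp of AT1G03010. In the ZnF-triple list it covered 4821 bp, followed by 2519 bp of LOX3, a lipoxygenase gene of the jasmonate pathway. In the ZnF-ref6 list it covered 4546 bp, which ranked 2 with the chromosome 2 block included. Outside that block the next gene apart from its neighbour AT3G48425 was UBQ13 with 500 bp.

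A REF6 peak over a gene body was common in 3 of the lists and rare in the fourth. At least 1 peak overlapped the body of 19.8% of the 27444 coding genes with REF6-GFP and DSG, 16.6% without DSG, 0.926% in the ZnF-ref6 list and 27.5% in the ZnF-triple list. REF6 was among 49 genes, 0.179% of all, that a peak overlapped in all 4 lists. In the ZnF-ref6 list the 48 other genes had a median coverage of 9.31%. The highest of them was AT2G46995, a gene of 280 bp named after its values were seen, with 53.6%. REF6 had the highest minimum over the 4 lists, 87.1%, and AT2G46995 followed with 53.6%. At least 90% of the body was covered in both REF6-GFP lists for 176 genes, 0.641% of all. Their median length was 1045 bp, and REF6, at 5537 bp, was the longest of them.

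Of the genes covered to this extent by REF6-GFP, more than any other class went from unmarked to H3K27me3-marked in the triple mutant, and REF6 did not. A gene body counts as unmarked below 10% coverage and as marked from 50% on, and a gene that is unmarked in wild-type and marked in triple mutant flowers is called gained, and in the reverse case lost. Of the 176 genes, 105 were gained (59.7%), 47 were unmarked in both (26.7%), 13 were intermediate and 11 were marked in both. Over all coding genes, 6.29% were gained, 60.5% unmarked in both, 10.6% intermediate and 22.1% marked in both. REF6 belonged to the unmarked genes. Its peaks came from plants with a REF6 transgene, whereas no transgene is named for the H3K27me3 plants. The other genes are not like it in this respect, which limits the comparison. Of the 49 genes overlapped in all 4 lists, 13 were gained and 13 were unmarked in both.

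No H3K27me3 domain was listed in the close surroundings of REF6 either. The nearest domain lay 6078 bp away in the wild type, at chr3:17946870-17947242, and 6047 bp away in the triple mutant, at chr3:17946839-17947187. Both had low −log10 q, 1.92 and 0.988. Of all coding genes, 26.1% lay at least this far from a wild-type domain and 18.7% from a triple mutant domain.

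The neighbours of REF6 varied in REF6 and H3K27me3 coverage. AT3G48425, below it, was touched by the edge of the same peaks, over 3.52% of its body with DSG, 3.78% without DSG, 0.493% in the ZnF-triple list and 36.9% in the ZnF-ref6 list. AT3G48440, above it, was covered over 5.69% without DSG and had no peak in the 3 other lists. Neither had an H3K27me3 domain. The next gene, AT3G48450, had REF6-GFP peaks over 95.7% of its body with DSG (chr3:17943925-17945086, fold 5.23) and 88.2% without it, and like REF6 it was at 0 in both H3K27me3 lists. AT3G48460, which begins 8624 bp above REF6, had REF6-GFP peaks over 39.9% of its body with DSG and 35.7% without it, and ZnF-triple peaks over 70.2%. Its H3K27me3 coverage went from 0 to 77.3%. AT3G48390, 11760 bp below REF6, likewise went from 0 to 77.9% and had REF6-GFP peaks over 23.8% and 30.0% of its body. REF6 lay between these 2 genes with REF6 peaks that gained the mark. Of the 12 other coding genes within 20 kb of REF6, only these 2 had a domain, so most shared its lack of one.

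By coverage over the 6 lists, the gene nearest to REF6 was AT2G46995, at a Euclidean distance of 62.3 percentage points. It was covered over 100% in both REF6-GFP lists and the ZnF-triple list and 53.6% in the ZnF-ref6 list, and unlike REF6 it had 49.3% H3K27me3 in the triple mutant. The nearest with a symbol was CP12-3, which encodes a small regulator of the Calvin cycle, at 89.4 percentage points, followed by WRKY46, CASP2, ICK5 and SAUR27 at up to 91.7. CP12-3 was covered over 99.0, 96.8 and 95.1% in REF6-GFP with DSG, without DSG and in the ZnF-triple list, and 0 in both H3K27me3 lists. All 5 genes with a symbol were at 0 in the ZnF-ref6 list, where REF6 was at 89.0%. They were also short, at 730 to 1545 bp.

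ELF6 had no REF6 peak over its body or within 1 kb of it in any of the 4 lists. The nearest REF6-GFP peak with DSG lay 5248 bp below it, at chr5:1163378-1163905, with a fold of 3.22. Without DSG the nearest peak lay 5256 bp below it, at chr5:1163227-1163897, with a fold of 2.46. Both lay over PAL3, which encodes a phenylalanine ammonia-lyase of phenylpropanoid synthesis and had a further peak in each list. Of all coding genes, 47.0% lay at least as far from a peak with DSG and 53.1% from one without it. In the ZnF-ref6 list the nearest peak was 7155 bp away, at chr5:1182147-1182274 over AT5G04267, and 95.9% of coding genes lay at least as far from a peak of that short list. In the ZnF-triple list it was 13187 bp away, and 29.5% of coding genes lay at least as far. Of the coding genes of chromosome 5 alone, 69.7% lay at least as far from a peak of that list. Peaks of the ZnF-triple list were sparse on the whole of chromosome 5, at 4.58 per 100 coding genes, and overlapped 4.22% of its coding genes. They numbered 9.64 per 100 coding genes on chromosome 4 and 47.9 to 52.3 on chromosomes 1 to 3.

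A triple mutant H3K27me3 domain lay over the higher-coordinate end of ELF6. The domain, at chr5:1173617-1175028, was 1412 bp wide, with a fold of 2.16 and a −log10 q of 21.7. Of its length, 97.5% lay inside ELF6, and it ran 36 bp past the gene end. No wild-type domain touched it, and the nearest wild-type domain to the gene, at chr5:1159881-1163228 over PAL3, lay 5925 bp below it. At 23.6% coverage ELF6 is intermediate by the rule above, in a class that held 10.6% of coding genes. A domain of the triple mutant overlapped 39.2% of coding genes, and 20.6% of the 759 genes of 5000 to 6000 bp, the length class that holds both members.

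**Figure D3:**
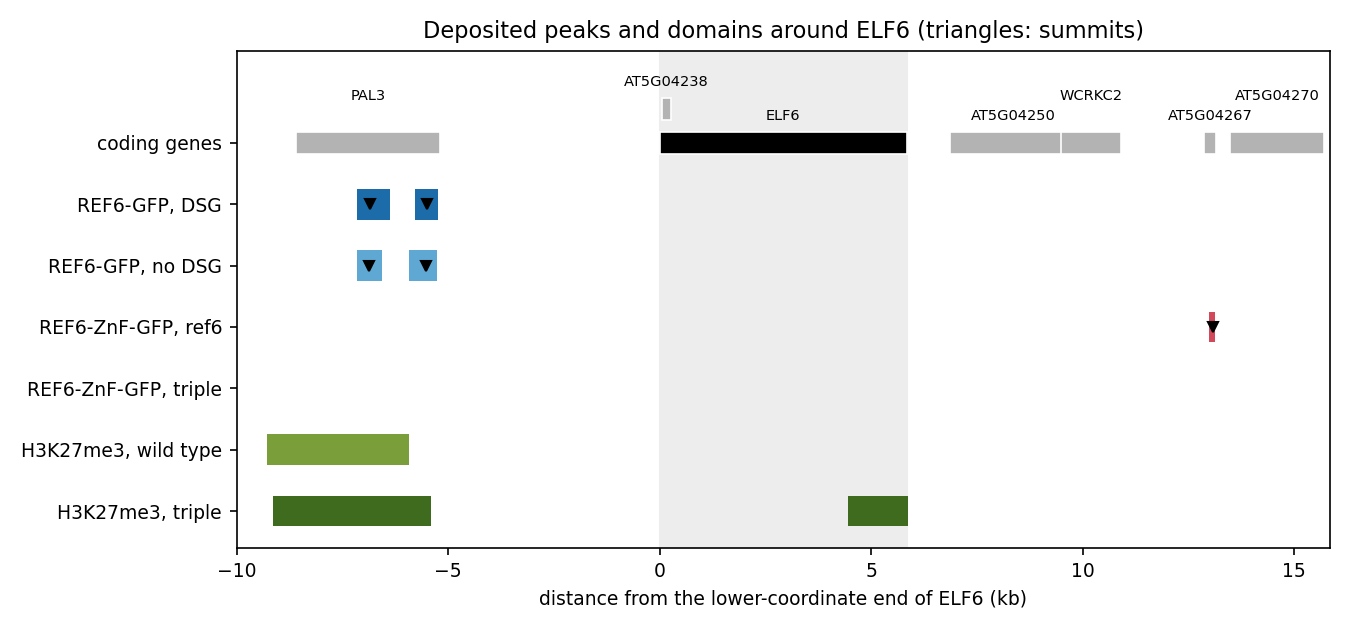
Deposited intervals within 10 kb of the ELF6 gene, with distance from the lower-coordinate end of the gene (kb) on the horizontal axis, 1 row per list and the gene shaded. Over ELF6 itself the only bar is the triple mutant H3K27me3 domain of 1412 bp at the higher-coordinate end, and the REF6-GFP peaks lie over PAL3.

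The domain at ELF6 stood above the median among domains without a wild-type counterpart, and it lay outside REF6 peaks. Such domains numbered 2080 of 9391 (22.1%). Among these the ELF6 domain ranked 492 by −log10 q (median 6.24), 511 by fold (median 1.62) and 602 by width (median 876.5 bp). A REF6-GFP peak with DSG overlapped 1121 of the 2080 (53.9%), and 620 (29.8%) overlapped no peak of any of the 4 REF6 lists. Of the 492 with a −log10 q at least as high as the ELF6 domain, 35 (7.11%) overlapped no REF6 peak, and the ELF6 domain was among these 35. The nearest REF6-GFP peak lay 9712 bp from it with DSG and 9720 bp without DSG, and 13.7% and 18.0% of the 2080 domains lay at least as far away. A ZnF-ref6 peak lay 7119 bp from it, and 95.8% of the 2080 domains lay at least as far from one. The nearest ZnF-triple peak lay 13151 bp from it, and 24.3% of the 2080 lay at least as far from one. ZnF-triple peaks overlapped 883 of the 2080 (42.5%) and were sparse on chromosome 5, as given above. The shares without a REF6 peak are over all chromosomes and were not computed for chromosome 5 alone.

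Partial coverage of this kind was found at many genes. H3K27me3 coverage was 0 in wild-type flowers and between 10 and 50% in triple mutant flowers at 1062 coding genes, 3.87% of all. Of these, 545 (51.3%) had a REF6-GFP peak with DSG over the body and 279 (26.3%) had no peak in any of the 4 lists, as ELF6 did. Over all coding genes 60.7% had no peak in any of the 4 lists. By coverage over the 6 lists the genes with a symbol closest to ELF6 were ARR6, a response regulator gene of cytokinin signalling, HMA3, which encodes a heavy metal transporter, the NAC transcription factor gene RD26, FAR1 of phytochrome A signalling, and ROC5, a cyclophilin gene. Their triple mutant coverage was 22.9 to 23.5%, at a distance of at most 0.679 percentage points, and all other values were 0. All of them lie on chromosomes 4 and 5. Peaks of the ZnF-triple list were sparse on both, at 9.64 and 4.58 per 100 coding genes, so a 0 in that list says little.

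Around ELF6, several other genes carried or acquired the mark. The wild-type coverage of PAL3 was 78.5% and its triple mutant coverage 93.6%, with REF6-GFP peaks over 38.5% of its body with DSG. PKS4, a phytochrome kinase substrate gene 16526 bp below ELF6, went from 0 to 98.9%, and REF6-GFP peaks covered 100% of it with DSG and 99.1% without DSG. ACA3, 19869 bp below ELF6, went from 0 to 41.7%, and SYTC, 10209 bp below it, from 0.155 to 38.0%. Like ELF6, both had no REF6 peak in any of the 4 lists. The metacaspase gene MC9 and AT5G04210 were covered over 100% in both genotypes and had no REF6 peak. AT5G04238 is annotated inside the lower-coordinate end of ELF6, and AT5G04250 is the next gene above it. Both were at 0 in all 6 lists. Within 20 kb of ELF6, 4 of the 12 other coding genes had some H3K27me3 in wild-type flowers and 6 in triple mutant flowers. Around REF6 the counts were 0 and 2 of 12 other genes. Over all coding genes, a wild-type domain overlapped 30.1% and a triple mutant domain 39.2%.

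The JmjC list of 21 genes, drawn up from textbook family membership with earlier results known, places both members among their relatives. The gene table gave a name to 12 of them, and the other 9 are given by locus only. A peak overlapped 4 of 21 with REF6-GFP and DSG, 3 without DSG, 1 in the ZnF-ref6 list and 8 in the ZnF-triple list. Of all coding genes, 19.8, 16.6, 0.926 and 27.5% were overlapped in these lists. Each count includes REF6, which is the only gene counted in the ZnF-ref6 list. On chromosome 5 the ZnF-triple list overlapped 4.22% of coding genes and none of the JmjC genes there. That list was sparse on chromosome 4 too, so its share over all coding genes is an uneven background. A wild-type H3K27me3 domain overlapped 2 of the 21 and a triple mutant domain 5 (9.52% and 23.8%), against 30.1% and 39.2% of all coding genes. The family is long (median 4819 bp), and of all genes of 5000 to 6000 bp, domains overlapped 15.2% and 20.6%. Only 6 of the 21 genes fall in that length class, so it is not a matched background for the family. The median coverage was 0 in each list, for the 21 genes and for all genes alike. Of the 21 genes, 17 were unmarked in both genotypes and 4 were intermediate, so none was gained or lost, against 6.29% and 0.565% of all coding genes.

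REF6 differed from the rest of its family in how much was covered, since the highest coverage of any other family gene was 20.4, 19.6, 0 and 19.6% in the 4 REF6 lists. JMJ18, which encodes a demethylase of lysine 4 of histone H3, had 1 REF6-GFP peak with DSG (chr1:10936717-10937894, fold 3.55) and 1 without it (chr1:10936737-10937849, fold 3.42). Its H3K27me3 coverage went from 1.23 to 20.0%. JMJ15, of the same kind, had a REF6-GFP peak with DSG (chr2:14714813-14715520, fold 2.75) and none without it. The domain that reached into JMJ15 in the wild type (chr2:14710747-14713438) covered 32.8% of the gene, and the triple mutant domain (chr2:14710721-14717421) covered 100%. JMJ22, an arginine demethylase gene, had REF6-GFP peaks with folds of 3.14 and 2.63 at its lower-coordinate end and no H3K27me3 domain.

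Among the other genes known to encode H3K27me3 demethylases, JMJ30 was covered by the mark to an extent near that of ELF6 and, unlike ELF6, had a peak in 1 REF6 list. A triple mutant domain of 586 bp (chr3:7275790-7276375, −log10 q 13.9) covered 21.1% of JMJ30, which had 0 in the wild type. A peak of the ZnF-triple list (chr3:7275654-7276197, fold 4.52) covered 19.6% of it, and it had no peak in the 3 other REF6 lists. JMJ32 had no interval in any of the 6 lists, as had 37.4% of all coding genes. The third mutated gene of the triple mutant, jmj13, was not matched, since the gene table gives no locus by that name. AT5G46910, 1 of the 9 loci without a name, is likely that gene, which the labels and the gene table do not state. This limits what its triple mutant value means. Of the genes listed by locus only, AT5G46910 had a triple mutant domain of 290 bp with a −log10 q of 1.61, over 5.75% of its body, and AT1G09060, AT1G11950, AT4G00990 and AT1G78280 each had 1 peak of the ZnF-triple list, over 3.51 to 12.9% of their bodies.

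**Figure D4:**
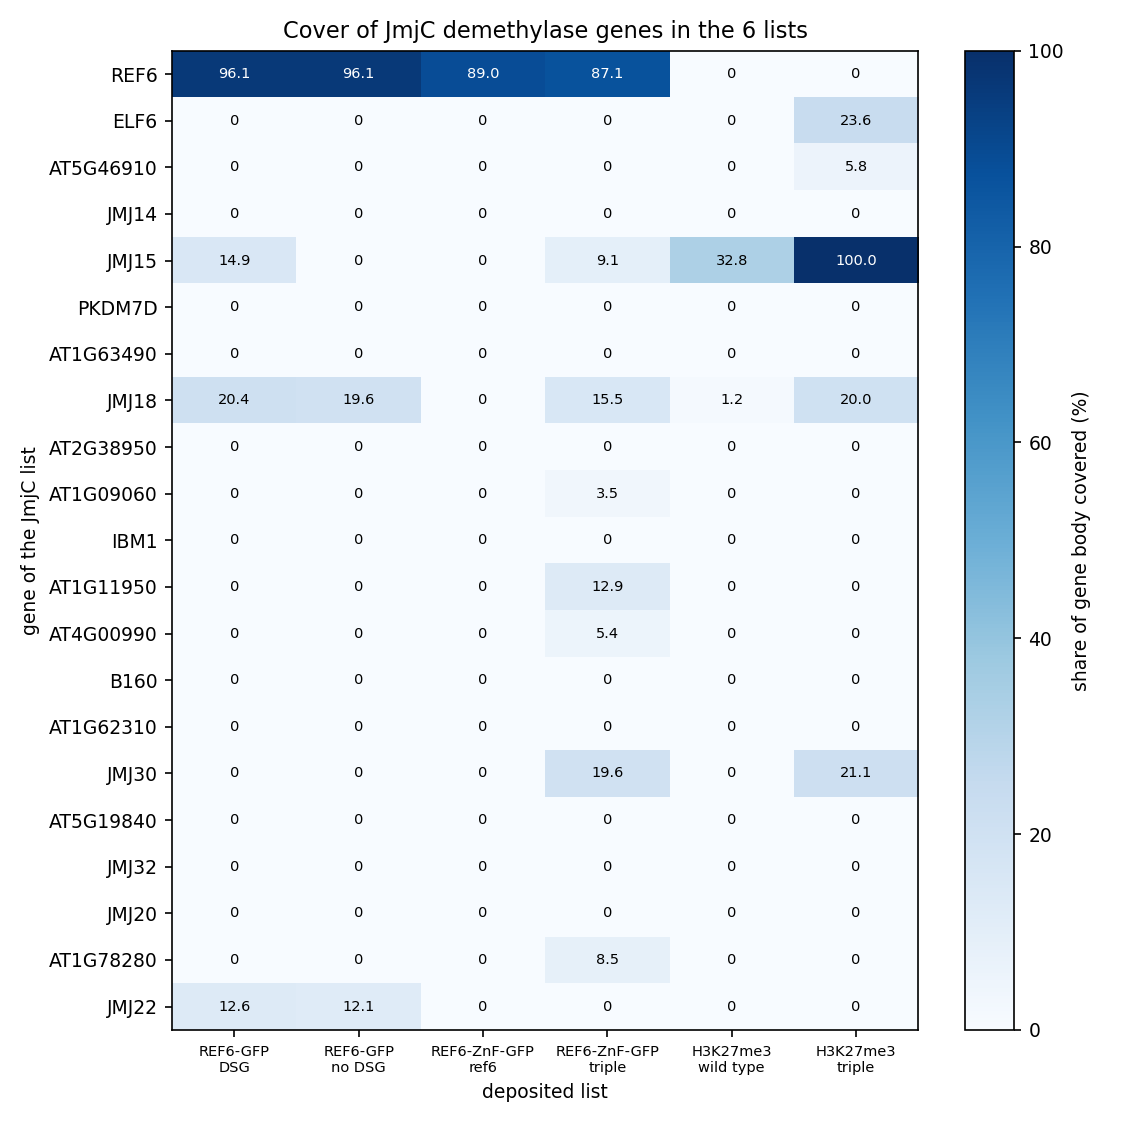
Share of the gene body (%) covered by deposited intervals for the 21 genes of the JmjC list (rows) in the 6 lists (columns), with the value printed in each cell. REF6 is at 96.1, 96.1, 89.0 and 87.1% in the REF6 lists and at 0 in both H3K27me3 lists, whereas ELF6 has a single value above 0, 23.6% in the triple mutant.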

How the data were processed

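The deposited lists used were 4 of REF6 peaks and 2 of H3K27me3 domains, each 1 call on pooled samples according to its peak names. Per the submitters' processing notes, the tools included MACS2 2.1.0, Bowtie 1.1.2, deepTools and Picard 2.60, with the TAIR10 build. Settings, controls and the filter on peaks are not given in the sources used here. Without a header in the files, the column layout of MACS2 was assumed. Fold enrichment is a linear ratio, as deposited by the authors. The −log10 q is likewise the authors' value as deposited, and the −log10 p column of each of the 6 lists was not used. The deposited integer score was not used. The titles of REF6-ZnF-GFP in the triple mutant name DSG and its peak names do not.

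Gene extents and names came from a RefSeq table of TAIR10.1, which has no strand, exons or sequence. Printed coordinates are those of the lists. As a check of the positions, 85.9% of REF6-GFP summits with DSG fell in coding genes as deposited, against 63.8% and 64.5% when moved by 20000 bp either way. Coverage is the share of a gene's annotated length under the union of intervals, computed with Python 3.11.15 and pandas 2.3.3 and tested on simulated data. A peak counted as over a gene at an overlap of at least 1 bp. No statistical test was made. Genes and lists were chosen with earlier results of these data known. Named genes were the members, the JmjC list, adjacent genes and, for each member, the 5 genes with a symbol closest in coverage over the 6 lists. Other genes were named after their values were seen, and so were the neighbours beyond the adjacent ones, the chromosome 2 block and the length class. Alternatives were −log10 q of at least 10, 1 kb added on both sides, a summit or at least 200 bp inside the gene, and 80% counted as marked. The planned protein, zinc finger and promoter motif features were not analysed here. The input and histone H3 samples (8) were not analysed here.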

Additional observations from a re-analysis of the deposited data

How the results depend on the processing

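Of 70 values recomputed under other settings, 24 could not change, since a stricter rule was applied to a value of 0, or a threshold to a list or class already past it. Of the other 46, 34 stayed and 12 moved, 6 of them coverages and 6 counts. A count moved where it changed by more than 1.5 times. A coverage moved where it left the 95% Wilson interval over the bases of the gene, which is narrow and takes no account of neighbouring bases being covered together. With 1 kb added on both sides, REF6 coverage was 78.8% with DSG, 78.9% without DSG, 78.7% in ref6 and 70.9% in the triple mutant, and H3K27me3 at ELF6 in the triple mutant was 18.0%. Of the 2000 bp added to REF6, 618, 626, 1000 and 526 bp were covered in these lists, and of those added to ELF6, 36 bp. With −log10 q of at least 10, the ZnF-ref6 list kept 1 of its 2 peaks over REF6, at 82.1% coverage, and the other values of both members that could change did not. Counts of JmjC genes moved more. With 1 kb added, REF6-GFP peaks overlapped 7 of these genes with DSG and 6 without it. H3K27me3 domains then overlapped 11 of them in triple mutant flowers, against 6 in wild-type flowers. With −log10 q of at least 10, the ZnF-triple list gave 5. The shares of all coding genes given above hold for the gene body alone and the full lists. They were not recomputed under these settings, so these counts cannot be compared with them. No paired analysis was possible because each list is 1 call on pooled samples and no sample has values of its own. For the same reason no replicate could be left out. The depth behind each list is not known here, and it can set how many peaks were called.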
